A study of Mus musculus with 9 samples.

Results

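The genes described here encode the proteins of the cytosolic ribosome, and they were examined in regulatory T cells (Tregs) of the mouse gut. A gene was taken if an array feature named it alone and its symbol was Rpl or Rps with a number, or Rplp0, Rplp1, Rplp2 or Rpsa. S6 kinase genes and pseudogene symbols ending in -ps were left out, and the brightest feature was kept for each gene. This gave 64 of the 22180 genes on the arrays, 40 of the large subunit and 24 of the small subunit. RefSeq lists 2 of them, Rpl6l and Rps4l, as pseudogenes in spite of their symbols. The rule used no measured value other than brightness.

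RNA came from Tregs of C57BL/6 mice that were wild type (WT), Y3 or Y3/CD103-/-, with 3 arrays of each. The Tregs were isolated by flow cytometry through a red fluorescent protein tied to Foxp3, from lamina propria of small and large intestine together. Y3 is not explained in the labels and was taken, from the study's title, to be an alteration of the IL-2 receptor β chain (gene Il2rb), and CD103 is the αE integrin chain encoded by Itgae. No group lacked CD103 alone, so loss of CD103 was seen on the Y3 background only. Whether the replicates came from different mice is not stated, so p-values speak only of array-to-array spread, which may be technical.

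A ribosome joins ribosomal RNA with a large set of proteins, each usually needed in 1 copy, and assembly begins in the nucleolus. Most mRNAs of these proteins open with a C followed by a run of pyrimidines, the 5′ terminal oligopyrimidine (TOP) motif, through which mTORC1 and the RNA-binding protein LARP1 set how actively they are translated. Signals from the IL-2 receptor feed mTORC1 and growth in T cells. Arrays of total RNA do not measure how actively an mRNA is translated.

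Start sites are shown because the TOP motif is the sequence feature that these genes share and that the rule did not use. RefSeq promoter sequences (GRCm38.p6) were matched by symbol for 49 of the 64 genes, of which the following were printed as examples with a motif match at the annotated start, and Rps13 as an example without one. Each line gives 10 bases before the annotated start and 20 from it, 5′ to 3′ on the transcribed strand. Capitals mark the unbroken pyrimidine run that begins at the start.
Rps6: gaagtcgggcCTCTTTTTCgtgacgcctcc
Rps18: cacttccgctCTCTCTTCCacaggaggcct
Rpl15: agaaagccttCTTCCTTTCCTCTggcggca
Rpl35: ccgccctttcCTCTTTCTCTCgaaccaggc
Rpl38: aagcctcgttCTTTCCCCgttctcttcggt
Rps27: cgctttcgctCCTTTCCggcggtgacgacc
Rps13: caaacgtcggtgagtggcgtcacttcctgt

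These windows lie at chr4:86857348-86857377 (minus strand) for Rps6, chr17:33955646-33955675 (minus) for Rps18 and chr14:18270967-18270996 (minus) for Rpl15. Those of Rpl35, Rpl38, Rps27 and Rps13 lie at chr2:39005112-39005141 (minus), chr11:114668570-114668599 (plus), chr3:90213629-90213658 (minus) and chr7:116334171-116334200 (minus). The pattern searched was a C at the annotated first base followed by at least 4 bases that are each C or T, on the transcribed strand only. It was present in 11 of 49 ribosomal protein genes with a sequence (22.4%) and in 813 of all 27025 genes of the promoter table (3.01%). Among genes of ribosome assembly it was present in 0 of 48, among mitochondrial ribosomal proteins in 0 of 62, and among translation factors and other genes known for TOP mRNAs in 3 of 18. When the run was allowed to begin within 10 bases of the annotated start, 30 ribosomal protein genes held it (61.2%), against 34.4% of all genes. By this wider search it was held by 48.4% of mitochondrial ribosomal proteins and 31.2% of assembly genes. Among translation factors and other genes known for TOP mRNAs the share was 44.4%. A match describes the letters at an annotated start, and a gene without one may begin at another base than the annotated one.

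The arrays were comparable in level but not in spread. Array medians lay between log2 3.15 and 3.23, while the standard deviation over all features was 1.87 on Y3 array 1 and 1.88 on Y3 array 3, above the 1.70 to 1.77 of the other 7 arrays. Itgae, the check of the labels, stood at 8.06, 7.87 and 7.85 in WT and at 9.35, 9.11 and 9.51 in Y3. In Y3/CD103-/- it stood at 6.64, 6.05 and 6.86, below every other array. Il2rb was lower in both Y3 groups by 1.04 and 1.03 log2 without passing (adjusted p = 0.0565 and 0.059). The list of Treg and T cell markers had a mean of 9.27 to 9.46 on all 9 arrays. The mean of 28 epithelial markers was 5.01 to 5.84 in WT, 3.98 to 4.69 in Y3 and 3.98 to 5.66 on Y3/CD103-/- arrays. The mean of 16 macrophage and dendritic markers was 4.71 to 5.31 in WT, 4.30 to 4.40 in Y3 and 4.57 to 4.75 on Y3/CD103-/- arrays. The mean of 9 CD8, γδ and NK cell markers was higher in both Y3 groups, at 5.32 to 5.46 in WT, 5.90 to 6.11 in Y3 and 5.72 to 6.05 on Y3/CD103-/- arrays. Of the 9, 3 rose in each Y3 group, the cytotoxic granule genes Gzma, Gzmb and Nkg7, where 0.618% and 0.555% of all genes rose. A fit with the epithelial mean as a covariate is given among the alternatives. Otherwise the part of these other cells in the values below was not tested. In sorted bulk RNA, fewer cells of a type and less RNA per cell cannot be told apart.

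The ribosomal protein features fell into a bright and a dim set. For 37 genes the feature's mean log2 signal over 9 arrays was 7.39 (Rplp0) to 11.71 (Rpl41), and for 27 it was 2.19 (Rpl32l) to 5.45 (Rps10), with none in the 1.94 log2 between. The brightest after Rpl41 were Rps18, Rpl4 and Rpl38. A dim feature is not evidence of little mRNA, since signal depends on the probes, and many of these genes have near-identical processed pseudogenes. Of 20 members that also lie on features shared with other genes, 11 had a shared feature brighter than their own, 9 of them dim members and 2 bright. For Rps27, a small-subunit protein, the mean was 5.08 on its own feature and 11.84 on 1 shared with Rps27rt, a near-identical copy. For Rpl30 the pair of means was 3.36 and 11.55, and for Rpl27a 3.08 and 10.68. Values of single members that have such copies are therefore uncertain. The cut between the sets was drawn after the values were seen.

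**Figure D1:**
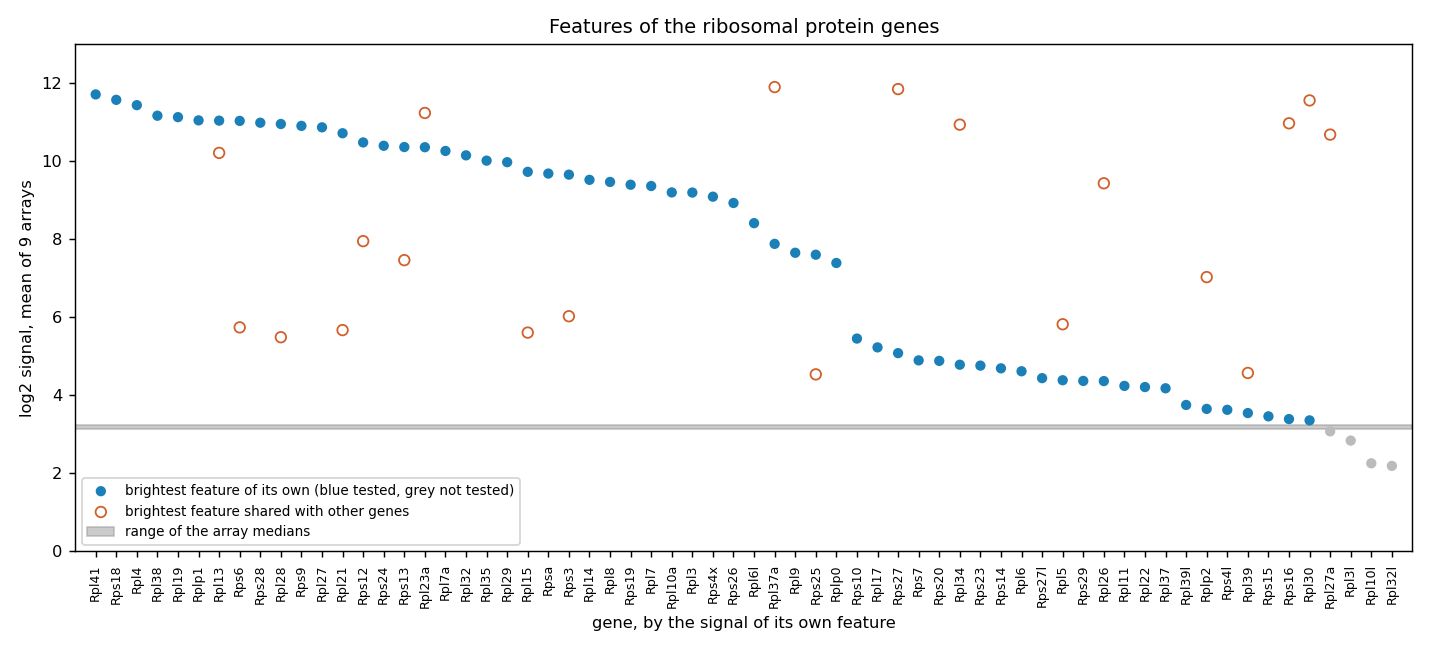
Mean log2 signal over 9 arrays (y axis) of each ribosomal protein gene's own brightest feature (filled points, blue if tested, grey if not) and of its brightest feature shared with other genes (open circles), ordered by the former; the grey band is the range of array medians. The 37 bright features end at 7.39 and the 27 dim features begin at 5.45, while several dim genes have a shared feature above 9.

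Genes were tested if they exceeded the array median on at least 3 of 9 arrays, which 60 of the 64 members did. The others were Rpl27a, above it on 2 arrays, and Rpl3l, Rpl10l and Rpl32l, above it on 0. Rpl3l and Rpl10l are paralogs known from striated muscle and testis. The bright members were measured tightly: their median standard deviation was 0.05 in WT, 0.12 in Y3 and 0.07 on Y3/CD103-/- arrays, against 0.24, 0.18 and 0.23 over all genes tested.

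In Y3 against WT, ribosomal protein genes stayed within 1.64-fold of WT. Of 60 genes, 30 were higher and 30 lower in the deposited values, 25 and 35 after quantile normalization, and 22 and 38 after cyclic loess, a scaling that depends on brightness. Of all genes, 29.5% were lower as deposited, 43.5% after quantile normalization and 48.9% after cyclic loess. As deposited, the members had differences from -0.60 to 0.71 log2 and a median of -0.00, while the median of all 12792 genes tested was 0.15. With limma, 0 of 60 passed an adjusted p of 0.05, where 0.79% of all genes did, and the smallest adjusted p was 0.191. At an unadjusted p under 0.05, 4 were higher (Rplp1, Rpl11, Rpl6 and Rps27) and 2 lower (Rps13 and Rps29), against 13.4% of all genes higher and 3.6% lower. The 3 Y3 arrays all lay above the 3 WT arrays for 4 members and below them for 7, where 19% and 4.93% of all genes did so, together 23.9%. Which direction held more members depended on the scaling, and the shares of all genes also differed between scalings. Centring each array on its median gave 10 above and 3 below, against 19.5% and 4.77% of all genes. Quantile normalization gave 6 and 7, against 10.9% and 8.02%, and cyclic loess 3 and 9, against 8.93% and 9.72%. The median member's 95% interval reached 0.34 log2 to either side, and 56 of the 60 intervals lay within 1 log2 of no difference.

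In Y3/CD103-/- against WT, most members were slightly lower. Of 60 genes, 46 were lower and 14 higher, with a median of -0.11 against 0.04 over all genes, of which 44.9% were lower. The members' median lay -0.15 log2 from that of all genes, the same distance as in Y3 against WT (-0.15). After cyclic loess these distances were -0.13 and -0.09. Again 0 of 60 passed with limma, where 0.836% of all genes did, and the smallest adjusted p was 0.238. At an unadjusted p under 0.05, 2 were higher (Rpl6 and Rpl11) and 2 lower (Rps13 and Rpl5), against 7.9% and 5.35% of all genes. The groups did not overlap, with Y3/CD103-/- lower, for 23 members (38.3%), against 6.68% of all genes, and with Y3/CD103-/- higher for 2 members, Rplp1 and Rpl6, against 10.7%, so that 17.4% of all genes did not overlap in either direction. The share of all genes was not matched for spread. The median standard deviation of bright members was 0.05 in WT and 0.07 in Y3/CD103-/-, against 0.24 and 0.23 over all genes, so smaller shifts separate their groups. After cyclic loess the lower count was 22 (36.7%) against 8.82% of all genes, and after quantile normalization 19 (31.7%) against 8.03%. The size of the shift is small beside the precision of a single gene, whose 95% interval was again 0.34 log2 wide to either side at the median.

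In Y3/CD103-/- against Y3, which share the Y3 alteration, most members were again slightly lower, as were most of all genes in the deposited values. Of 60 genes, 42 were lower (70%) and 18 higher, where 66.2% of all genes were lower. The median of the members was -0.10, and the median of all genes was also -0.10 in the deposited values. After cyclic loess the medians were -0.08 and 0.00, and after quantile normalization -0.08 and -0.02. With limma, 0 of 60 passed, where 0.00782% of all genes did, and the smallest adjusted p was 0.443. At an unadjusted p under 0.05, Rps15 was higher and Rps4x and Rpl5 lower, against 1.78% and 8.12% of all genes. The groups did not overlap for 16 members with Y3/CD103-/- lower (26.7%), against 14.4% of all genes, and for 0 with it higher, against 4.11%, together 18.6% of all genes. After cyclic loess these counts were 10 lower (16.7%) and 3 higher, against 8.2% and 8.51%. The comparisons share arrays, so they are not independent of each other.

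**Figure D2:**
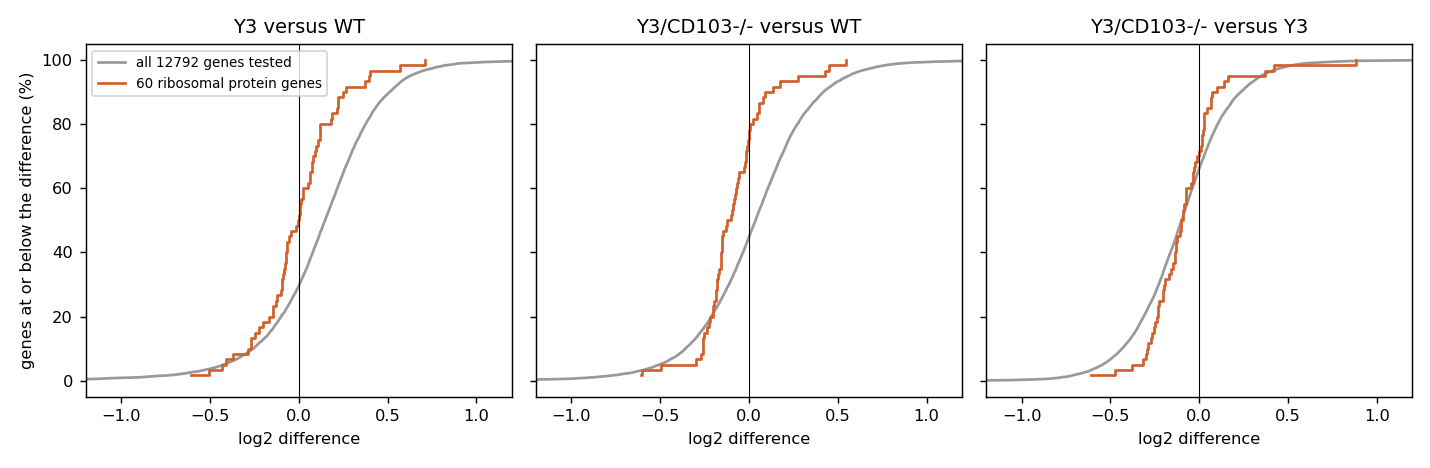
Cumulative share of genes (y axis, percent) at or below each log2 difference (x axis) for the 60 ribosomal protein genes tested and all 12792 genes tested, in the 3 comparisons. Around its middle the ribosomal protein curve lies left of that of all genes in both comparisons with WT, with medians of -0.00 against 0.15 and -0.11 against 0.04, while both tails of all genes reach further.

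Of the 23 members that lay below WT without overlap in Y3/CD103-/-, 20 had bright features. Of all genes, 6.68% lay below WT without overlap. Of 37 bright members, 32 were lower than WT and 5 higher, with a median of -0.16, where 44.9% of all genes were lower. All 13 bright small-subunit genes were lower (median -0.17), as were 19 of 24 large-subunit genes (median -0.11). Under quantile normalization, 28 of the 37 were lower and 9 higher, with 12 of 13 small-subunit and 16 of 24 large-subunit genes lower. Centring on the array median left 31 of 37, 12 of 13 and 19 of 24 lower. Cyclic loess left 33 of 37, 13 of 13 and 20 of 24 lower. Of all genes, 48.1%, 44.3% and 50% were lower under these scalings, in that order. Leaving out any 1 array of either group left 30 to 33 of the 37 lower, where 43.3% to 47.1% of all genes were. The 23 dim members tested had 14 lower and 9 higher, with a median of -0.07.

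By array, the median bright member stood -0.18, -0.12 and -0.10 log2 from its WT mean on Y3/CD103-/- arrays 1, 2 and 3, and 25 of 37 were below that mean on all 3. On Y3 arrays the median was 0.01, -0.03 and -0.01, but single genes departed in both directions. On Y3 array 3, 11 bright members were over 0.2 log2 above the WT mean and 9 were over 0.2 below it. On Y3 array 1 such members numbered 3 and 4, and on Y3 array 2 they numbered 1 and 2. These counts by array were not made over all genes. Y3 arrays 1 and 3 are also those with the widest spread over all features, and the part of that spread in these values was not tested. Rpl32, a large-subunit protein, varied most, at 9.93, 10.12 and 10.71 on the 3 Y3 arrays against 10.10, 10.21 and 10.30 in WT.

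**Figure D3:**
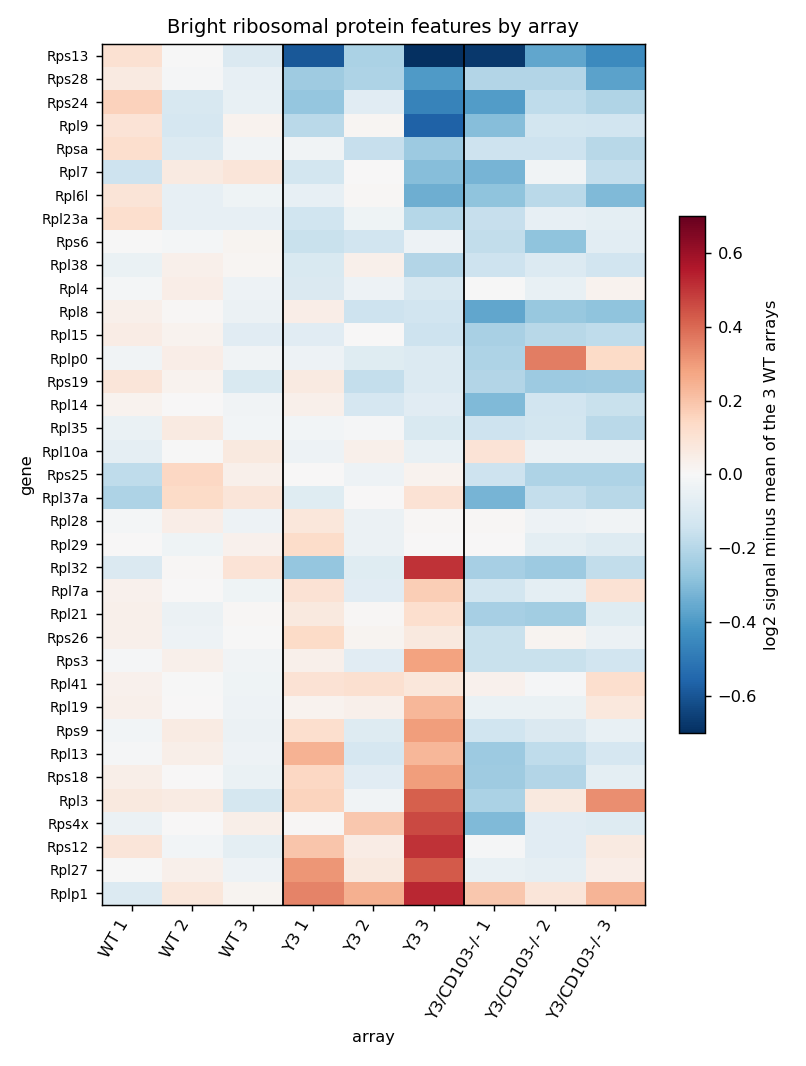
Log2 signal of each of the 37 bright ribosomal protein genes (rows, ordered by the Y3 mean) on each array (columns) minus the mean of the 3 WT arrays, with blue lower and red higher. Y3 array 3 holds 11 genes over 0.2 above and 9 over 0.2 below the WT mean, while the Y3/CD103-/- columns are mostly blue.

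Among small-subunit genes, Rps13, whose protein sits on the face toward the large subunit, had the smallest p in both comparisons with WT. It stood at 10.80, 10.69 and 10.59 in WT, 10.10, 10.47 and 9.99 in Y3, and 10.02, 10.33 and 10.25 on Y3/CD103-/- arrays. Every array of both Y3 groups lay below every WT array. The log2 difference was -0.51 ± 0.17 (SE, adjusted p = 0.191) in Y3 and -0.49 ± 0.17 (adjusted p = 0.238) in Y3/CD103-/-, and 0.01 between those groups (95% interval -0.37 to 0.39). With a variance model that follows brightness and downweights outlying genes, both differences from WT passed (adjusted p = 0.0258 and 0.027). Rps13 has no pyrimidine run at its annotated start, as its window shows, and a feature it shares with Snord14a, a small nucleolar RNA gene, differed by 0.09 and -0.07.

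Rps28, a small protein of the same subunit named here after its values were seen, had the same order of groups. It stood at 11.23, 11.16 and 11.11 in WT, 10.92, 10.95 and 10.77 in Y3, and 10.96, 10.96 and 10.79 on Y3/CD103-/- arrays. It differed from WT by -0.29 ± 0.14 (SE, adjusted p = 0.332) and -0.26 ± 0.14 (adjusted p = 0.467), with no overlap with WT in either. Under alternative settings, its difference in Y3 ran from -0.32 to -0.03.

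Rps6, the substrate of S6 kinase and the usual readout of mTORC1 activity through its phosphorylation, stood at 11.12, 11.11 and 11.14 in WT, 10.97, 10.99 and 11.09 in Y3, and 10.95, 10.84 and 11.05 on Y3/CD103-/- arrays. All 6 arrays of the Y3 groups were below WT, by 0.10 and 0.17 log2 on average, with intervals of -0.41 to 0.20 and -0.48 to 0.13. mRNA level says nothing of its phosphorylation. Rps4x, the X-linked copy of Rps4, was the small-subunit gene with the largest difference between the Y3 groups among bright features. It stood at 9.08, 9.26 and 9.53 in Y3 and at 8.76, 8.99 and 8.98 in Y3/CD103-/- without overlap, against 9.03, 9.07 and 9.11 in WT, and its difference was -0.38 ± 0.16 (SE, adjusted p = 0.476).

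Rps3, at the mRNA entry channel, stood at 9.67, 9.71 and 9.65 in WT and at 9.52, 9.52 and 9.54 in Y3/CD103-/-. Rps19, mutated in Diamond-Blackfan anaemia, stood at 9.58, 9.52 and 9.39 in WT and at 9.29, 9.24 and 9.25 in Y3/CD103-/-. Rpsa, which also serves as a laminin receptor, stood at 9.90, 9.69 and 9.76 in WT and at 9.64, 9.64 and 9.59 in Y3/CD103-/-. In none of the 3 did Y3/CD103-/- overlap WT, where 6.68% of all genes were lower without overlap. The differences of -0.15, -0.24 and -0.16 did not pass (adjusted p = 0.705, 0.516 and 0.689). In Y3 each of the 3 overlapped WT, with differences of 0.08, -0.07 and -0.14. Rps18, which has a pyrimidine run at its start, differed by 0.12 in Y3 and by -0.17 in Y3/CD103-/-.

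Of the small-subunit genes on dim features, Rps27, Rps29, Rps15 and Rps16 differed most or varied most. Rps27 stood at 5.32, 4.83 and 3.93 in WT and 5.30, 5.29 and 5.62 in Y3, overlapping, a difference of 0.71 ± 0.30 (SE, adjusted p = 0.262), while the bright feature it shares with Rps27rt differed by -0.18. Rps29 stood at 4.50, 4.58 and 4.53 in WT and 3.96, 4.49 and 3.86 in Y3, a difference of -0.43 ± 0.18 (adjusted p = 0.254). Rps15 stood at 3.28, 3.02 and 2.60 in Y3 and 3.04, 4.31 and 4.19 in Y3/CD103-/-, the largest difference of any member at 0.88 ± 0.33 (adjusted p = 0.443), with overlap and near the array medians. Rps16 spread over 2.31, 3.73 and 4.56 within Y3/CD103-/-, so its mean there carries little information.

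Among large-subunit genes, Rplp1, an acidic protein of the stalk that recruits elongation factors, was the bright member with the largest positive difference in Y3. It stood at 10.77, 10.94 and 10.88 in WT, 11.21, 11.11 and 11.39 in Y3, and 11.05, 10.95 and 11.10 on Y3/CD103-/- arrays. The 3 groups did not overlap. The log2 difference from WT was 0.37 ± 0.15 (SE, adjusted p = 0.236) in Y3 and 0.17 ± 0.15 (adjusted p = 0.662) in Y3/CD103-/-, and with the brightness-dependent variance model the first passed (adjusted p = 0.0191). The other stalk genes gave mixed values. Rplp0, the stalk's base, stood at 7.36, 7.43 and 7.36 in WT, 7.35, 7.30 and 7.29 in Y3, and 7.17, 7.74 and 7.52 on Y3/CD103-/- arrays, and Rplp2, on a dim feature, differed by -0.20 in Y3 and -0.16 in Y3/CD103-/- (adjusted p = 0.712 and 0.836). A brighter feature that Rplp2 shares with Snora52, a small nucleolar RNA gene, had differences in the direction of Rplp1, 0.41 in Y3 and 0.55 in Y3/CD103-/- (adjusted p = 0.415 and 0.348 over all features).

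Rpl5 and Rpl11 enter the ribosome together with 5S RNA, and free particles of them bind MDM2 and stabilise p53. Rpl11 stood at 4.17, 3.87 and 3.57 in WT, 4.46, 4.15 and 4.70 in Y3, and 4.15, 4.62 and 4.47 on Y3/CD103-/- arrays, with 1 array of each Y3 group just below the highest WT array. It differed from WT by 0.57 ± 0.21 (SE, adjusted p = 0.218) and 0.55 ± 0.21 (adjusted p = 0.288). Rpl5 stood at 4.35, 4.85 and 4.56 in WT, 4.23, 4.87 and 4.68 in Y3, and 3.55, 4.34 and 4.07 on Y3/CD103-/- arrays, below every WT array. Its differences were -0.60 ± 0.24 from WT (adjusted p = 0.309) and -0.61 ± 0.24 from Y3 (adjusted p = 0.462), and the feature it shares with a pseudogene differed from Y3 by -0.73. Both of these features are dim, and their differences in Y3/CD103-/- had opposite signs.

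Rpl6, a surface protein of the large subunit, stood at 4.57, 4.20 and 4.25 in WT, 4.80, 4.60 and 4.82 in Y3, and 4.66, 4.85 and 4.80 on Y3/CD103-/- arrays. Both Y3 groups lay above WT without overlap, by 0.40 ± 0.16 (SE, adjusted p = 0.242) and 0.43 ± 0.16 (adjusted p = 0.273). The copy Rpl6l, on a bright feature, stood lower in the Y3 groups, with differences of -0.13 and -0.26 (adjusted p = 0.689 and 0.505). Rpl3, which lies near the peptidyl transferase centre, gave different values on 2 features of its own. On the brightest, WT stood at 9.18, 9.17 and 8.99 and Y3 at 9.27, 9.09 and 9.53, a difference of 0.19 ± 0.19 (adjusted p = 0.628). On the second, WT stood at 7.44, 7.07 and 7.25, Y3 at 8.13, 8.12 and 8.38, and Y3/CD103-/- at 7.94, 7.92 and 8.02. There both Y3 groups lay above WT without overlap, by 0.96 ± 0.16 and 0.71 ± 0.16, which did not pass over all 21770 features (adjusted p = 0.0695 and 0.134). Over all 90 distinct features of the members tested this way, 0 passed in any comparison, where 0.0781%, 0.23% and 0.00459% of all features did. Which exons the features cover is not known here.

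The brightest large-subunit genes were close to level. Rpl41, the smallest ribosomal protein, stood at 11.69, 11.66 and 11.63 in WT, 11.76, 11.77 and 11.74 in Y3, and 11.69, 11.65 and 11.78 on Y3/CD103-/- arrays. It differed from WT by 0.09 and 0.04, and its other 3 bright features differed by -0.31 to 0.07. Rpl4 differed from WT by -0.09 and -0.01, and Rpl38, which is known to shape translation of Hox mRNAs, by -0.09 and -0.13. Rpl8, a core protein named after its values were seen, had the lowest unadjusted p among bright large-subunit genes in Y3/CD103-/-. It stood at 9.63, 9.60 and 9.55 in WT, 9.64, 9.45 and 9.46 in Y3, and 9.23, 9.33 and 9.31 on Y3/CD103-/- arrays, below all other arrays, a difference from WT of -0.30 ± 0.14 (SE, adjusted p = 0.385).

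Rpl22, whose loss is known to arrest αβ T cell development, stood at 4.11, 4.12 and 4.31 in WT, 4.27, 4.20 and 4.42 in Y3, and 3.99, 4.16 and 4.32 on Y3/CD103-/- arrays, with the groups overlapping. Rpl30 and Rpl34, on dim features, had their lowest values in Y3/CD103-/-, with differences of -0.61 ± 0.28 from WT (adjusted p = 0.384) and -0.48 ± 0.23 from Y3 (adjusted p = 0.519). Their brightest shared features differed in the same comparisons by -0.18 and -0.31. The paralogs that could be tested beside their counterparts gave small differences: Rpl39 and Rpl39l differed from WT by -0.22 and -0.09 in Y3, and Rps27l, a p53 target, by 0.08.

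**Figure D4:**
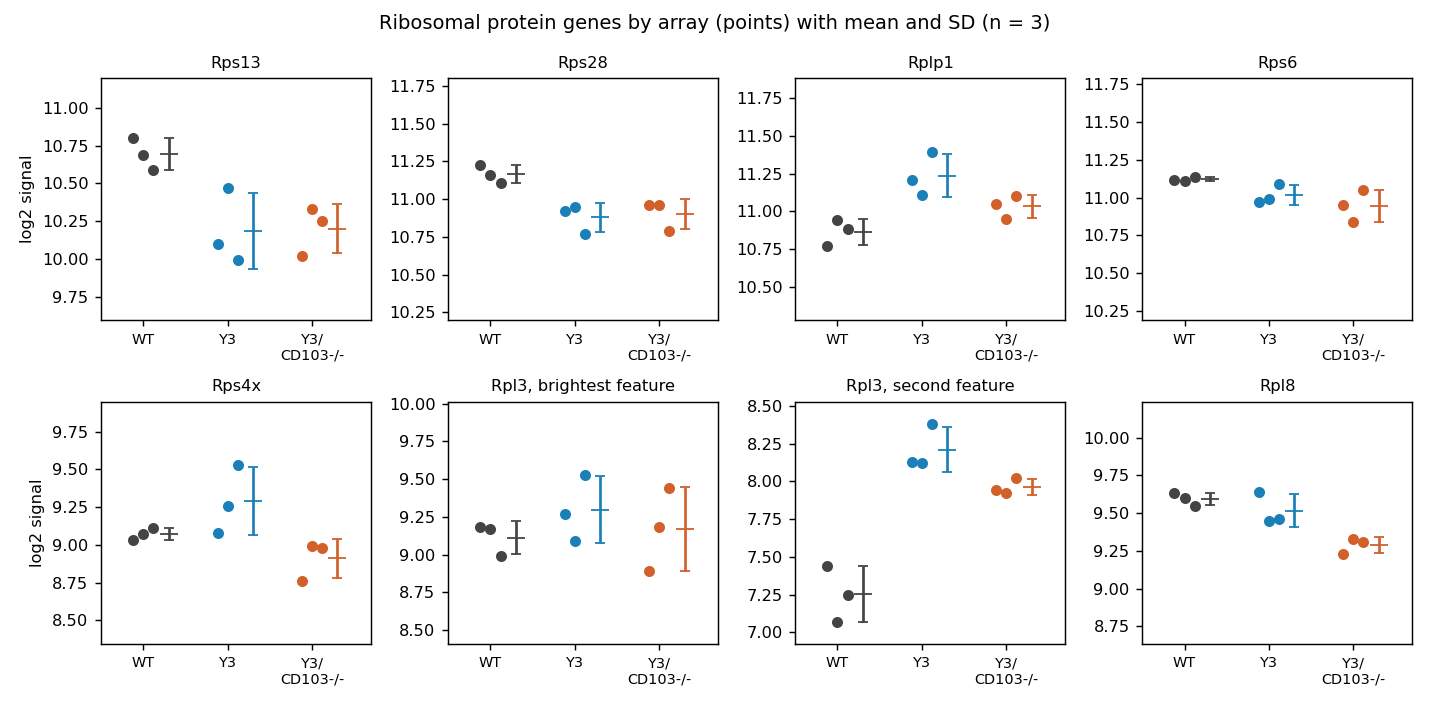
Log2 signal (y axes, each 1.6 log2 tall) of 8 ribosomal protein features on each array of WT, Y3 and Y3/CD103-/- (points), with mean and standard deviation of 3 arrays beside them. Rps13 and Rps28 lie below WT and Rplp1 above it on every array of both Y3 groups, and the second Rpl3 feature lies above WT where the brightest one overlaps it.

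The bright members with a pyrimidine run at the annotated start gave values like those without it. The 7 with a run had median differences of -0.05, -0.17 and -0.11 in Y3 against WT, Y3/CD103-/- against WT and Y3/CD103-/- against Y3, and the 21 without had 0.01, -0.15 and -0.10.

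The genes that supply and control ribosomes were counted in the same way. Over all genes, 0.79% passed in Y3 against WT, 0.836% in Y3/CD103-/- against WT and 0.00782% in Y3/CD103-/- against Y3. A count of 0 in lists this short lies near those shares. Of translation factors and other genes known for TOP mRNAs, 0 of 21 tested passed in any comparison, with medians of 0.05, -0.00 and -0.05. Eef1g, an elongation factor subunit, had the smallest p in Y3/CD103-/- against WT, at -0.36 ± 0.14 (SE, adjusted p = 0.302). Of ribosome assembly and RNA polymerase I genes, 0 of 50 passed. Of these, 43 (86%) were higher in Y3 than in WT (median 0.19) and 45 (90%) lower in Y3/CD103-/- than in Y3 (median -0.21). In the same comparisons, 70.5% of all genes were higher and 66.2% lower. The medians of the assembly genes are further from 0 than those of the ribosomal proteins and have the sign of the medians over all genes, 0.15 and -0.10. Rrp1b, a nucleolar protein, differed by 0.70 ± 0.22 in Y3 (adjusted p = 0.172) and Sdad1, a factor of large-subunit export, by -0.48 ± 0.14 in Y3/CD103-/- against WT (adjusted p = 0.172).

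Of mitochondrial ribosomal protein genes, 0 of 69 passed, where 0.79%, 0.836% and 0.00782% of all genes did. Their medians were 0.22, -0.06 and -0.25. There were 56 (81.2%) higher in Y3 than in WT, where 70.5% of all genes were. In Y3/CD103-/- against Y3, 57 (82.6%) were lower, where 66.2% of all genes were. Mrps17 had the smallest adjusted p, with a difference of 0.77 ± 0.17 in Y3 (adjusted p = 0.0677). Of mTOR pathway and TOP control genes, 0 of 24 passed, with medians of 0.17, 0.16 and -0.02. Sesn3, a sestrin that restrains mTORC1, was higher by 0.62 ± 0.15 in Y3 (adjusted p = 0.0891) and by 0.61 ± 0.15 in Y3/CD103-/- (adjusted p = 0.0947). Of the MYC network, 0 of 11 passed. Mxd1, an antagonist of MYC, was higher by 0.96 ± 0.20 in Y3/CD103-/- than in WT (adjusted p = 0.054).

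In the list of free ribosomal protein surveillance, 1 of 12 genes passed in Y3 against WT, where 0.79% of all genes did. Cdkn1a, the p53 target that encodes the cell cycle inhibitor p21, stood at 7.58, 7.59 and 7.52 in WT, 8.73, 8.28 and 8.67 in Y3, and 8.06, 8.73 and 8.35 on Y3/CD103-/- arrays. Both Y3 groups lay above WT without overlap, and Cdkn1a rose by 0.99 ± 0.20 (SE, adjusted p = 0.0497) in Y3, while 0.81 ± 0.20 in Y3/CD103-/- did not pass (adjusted p = 0.0925). The rise did not pass without any 1 WT or Y3 array (adjusted p from 0.0641 to 0.231) or without Y3/CD103-/- array 3 (0.0706). It also did not pass under quantile normalization (0.0589), cyclic loess (0.057), centring on the array median (0.0539), no filter (0.084), a fit of the 2 groups alone (0.0523), the replicate number as a block (0.102), Y3 arrays 1 and 3 averaged (0.224) or the epithelial covariate (0.285). It passed with the brightness-dependent variance model (0.0019), array weights (0.0135) and a filter requiring all 9 arrays (0.022). Averaging a gene's features (0.0481), keeping shared features (0.0497 and 0.0498) or leaving out Y3/CD103-/- array 1 or 2 (0.0415 and 0.0382) also kept it. The difference in Y3/CD103-/- from WT passed only with the brightness-dependent variance model (0.00686) and the filter requiring all 9 arrays (0.0471). Mdm2, the p53 ligase that the particle of Rpl5 and Rpl11 inhibits, differed by 0.33 and 0.41 (adjusted p = 0.436 and 0.435). Cdkn1a responds to many signals besides ribosomal proteins.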

How the data were processed

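The deposited log2 signals of Affymetrix mouse Gene ST 2.0 arrays had been summarised by the authors with RMA, according to the submitters' processing notes. That they are log2 values follows from their range. No RMA version, annotation release or build is given here. RNA was amplified and biotin-labelled, per the labels' protocols. Of 39137 features, 23521 named 1 gene, 1814 several and 13802 none. The brightest feature per gene was kept, and the 12792 genes above their array's median on at least 3 of 9 arrays were tested. All 9 arrays were fitted with limma 3.58.1 (lmFit, eBayes) in R 4.3.3 as 3 group means with no block, 2-sided, with Benjamini-Hochberg adjustment over all genes within each comparison. "Rose" and "fell" mean an adjusted p under 0.05. A second fit ran over all features past the filter. The fit was tested on simulated data. The members, lists, tests and alternatives were chosen with earlier results of these data known. Genes were named for smallest p, largest differences, brightness, position at the filter, or a role such as stalk, 5S particle or paralog; in other lists, for passing or smallest p. Only 3 arrays per group limit the precision. The alternatives changed the filter, scaling, feature choice, variance model, array weights, arrays in the fit, block, threshold and an epithelial covariate. The added ones kept features shared with any gene, or counted directions and overlaps under other scalings and without single arrays.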

Additional observations from a re-analysis of the deposited data

How the results depend on the processing

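In 23 alternatives per comparison, the number of ribosomal protein genes past an adjusted p of 0.05 was 0, apart from limma with a trended and robust variance, which gave 2 in Y3 against WT (Rplp1 higher, Rps13 lower) and 1 in Y3/CD103-/- against WT (Rps13). That model also raised the calls over all genes from 79 higher and 22 lower to 268 and 78 in Y3, and from 71 and 36 to 212 and 97 in Y3/CD103-/-. At an unadjusted p under 0.05 it gave 8 and 15 of 60 members. Of all 12792 genes it gave 1922 higher and 438 lower in Y3, and 1111 and 695 in Y3/CD103-/-. With the epithelial covariate the calls over all genes were 7 and 3 in Y3. The members' medians were then -0.01 in Y3 against WT, -0.13 in Y3/CD103-/- against WT and -0.10 in Y3/CD103-/- against Y3. Those of all genes were 0.15, 0.04 and -0.10. The median difference in Y3 against WT moved from -0.0008 to -0.0861 under cyclic loess, where the median of all genes was 0.01 in place of 0.15, so the members lay -0.15 from all genes as deposited and -0.09 after loess. Leaving out 1 array gave medians of -0.04 to 0.02 for Y3 against WT, -0.14 to -0.10 for Y3/CD103-/- against WT and -0.14 to -0.06 for Y3/CD103-/- against Y3. Of 1989 values of single members, 3 came to pass (those above), 36 moved by more than their spread and 0 reversed. Deviations from the group means had correlations of -0.04 to 0.11 between same-numbered arrays and -0.14 to 0.07 between the others. The labels do not say whether same-numbered arrays were prepared together, and these correlations, with 3 arrays per group, cannot exclude it. With the replicate block, 0 members passed in each comparison and the medians were -0.00, -0.11 and -0.10.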

Other observations

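RefSeq lists 84 symbols that meet the rule, and 20 of them had no feature of their own on these arrays. Of those, 7 were not analysed here, among them Rps27a, which encodes a fusion of ubiquitin with a ribosomal protein, and 13 were measured only on features shared with other genes, such as Rpl10, Rpl13a and Rpl36. Rpl13a is known for its part in silencing inflammatory mRNAs after interferon γ, and its brightest shared feature had a mean of 7.90. Over the 55 shared features that passed the filter, the median differences were 0.06 in Y3 against WT, -0.10 in Y3/CD103-/- against WT and -0.16 in Y3/CD103-/- against Y3. With limma, 0 of the 55 passed an adjusted p of 0.05 in each comparison, where 0.0781%, 0.23% and 0.00459% of all features did. At an unadjusted p under 0.05 the counts were 5, 1 and 2. That share was not computed over all features. Over all genes tested, 13.4%, 7.9% and 1.78% were higher and 3.6%, 5.35% and 8.12% lower at an unadjusted p under 0.05. Ribosomal proteins outside the naming pattern gave mixed values. Fau, a fusion of a ubiquitin-like protein with a small-subunit protein, differed from WT by 0.11 and 0.04, Rps3a1 by -0.38 and -0.27, and Rpl7l1, a paralog of Rpl7, by 0.25 and -0.51. Of 8 ribosomal protein pseudogenes tested, 0 passed, where 0.79%, 0.836% and 0.00782% of all genes did. Their medians were -0.13, -0.08 and -0.03.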
